A study of Mus musculus with 3 samples.

Results

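Stem-like cells were sought inside the LK gate of mouse bone marrow, a gate made up mostly of committed progenitors. They were chosen by their own counts: an LK cell with at least 200 genes and at most 10% mitochondrial UMIs was taken when it held at least 2 UMIs of Procr, Mecom and Hlf together and fewer than 8 UMIs of Pf4, Gp9 and Itga2b together. Of 3464 LK cells, 200 met the rule, or 5.77% (5.02% to 6.60%, exact binomial). The same rule took 702 of 1070 LSK cells (65.6%) and 11 of 4290 cells of total bone marrow (0.256%). The whole series held 8824 such filtered cells.

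LK stands for lineage-negative, Kit positive cells, LSK for the lineage-negative cells that carry both Sca-1 and Kit, and TBM for total bone marrow. Bones of the hind leg, hip and spine gave the marrow, and antibodies against CD5, CD8a, CD11b, CD45R, Ly-6C, Ly-6G and Ter119 marked the cells to be depleted. Each gate is 1 library of 10x Genomics 3' single-cell RNA (kit version 2). The labels used here give no strain, genotype, age, sex, treatment or number of mice, and do not say whether Sca-1 positive cells were kept out of the LK gate. With 1 library per gate there is no replicate check, and every interval below is a 95% interval that covers counting error only.

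Blood formation starts from stem cells that both renew themselves and give rise to progenitors of every lineage. Hlf and Mecom encode transcription factors of the stem cell program, and Procr encodes the endothelial protein C receptor, a surface marker of stem cells. Sca-1, the protein that separates the LSK from the LK phenotype, is encoded by Ly6a. Surface protein and RNA are different quantities, and only RNA was measured here.

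Per cell, the members' medians were 9348.5 UMIs and 2901.5 genes, against 14208 UMIs and 3463 genes in the other 3264 LK cells. Mitochondrial genes took 2.30% of their UMIs and ribosomal protein genes 30.9%, against 2.11% and 30.7%. Of the LK barcodes, 26 also occur in the TBM file and 6 in the LSK file. Among the members 3 barcodes recur in TBM and 0 in LSK, and whether these are the same cells was not tested. Scrublet called 3 LK cells doublets, which is 0.0866% of them and too few to show that it worked, and none of the 3 was a member.

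The 3 selecting genes were sparse. In the LK library, 2871 cells had no UMI of them, 392 had 1, 109 had 2, 59 had 3 and 33 had 4 or more, up to a highest sum of 12. The limit on Pf4, Gp9 and Itga2b, genes of the megakaryocyte lineage, removed 1 further cell, and 160 members had at most 1 UMI of those genes. Hlf carried most of the selection: 57 members had only Hlf, 51 had Mecom and Hlf, 46 Procr and Hlf, and 20 had all 3. Procr with Mecom chose 13 members, Procr alone 9 and Mecom alone 4. Hlf stood at 149 CPM (counts per 1000000 UMIs of the set) in the members and 5.04 in the other LK cells, Procr at 55.2 and 1.57, and Mecom at 51.5 and 1.63. These values chose the cells and are a description.

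Hlf (ENSMUSG00000003949) lies at chr11:90336536-90390895 on the minus strand of GRCm38, Procr (ENSMUSG00000027611) at chr2:155751117-155755471 on the plus strand and Mecom (ENSMUSG00000027684) at chr3:29951296-30548008 on the minus strand. Ly6a (ENSMUSG00000075602) lies at chr15:74994877-74998031 on the minus strand. All 4 are protein-coding genes. The LSK cells chosen by the same rule held 157 CPM of Hlf, 87.9 of Procr and 108 of Mecom. These levels too are set by the rule.

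**Figure D1:**
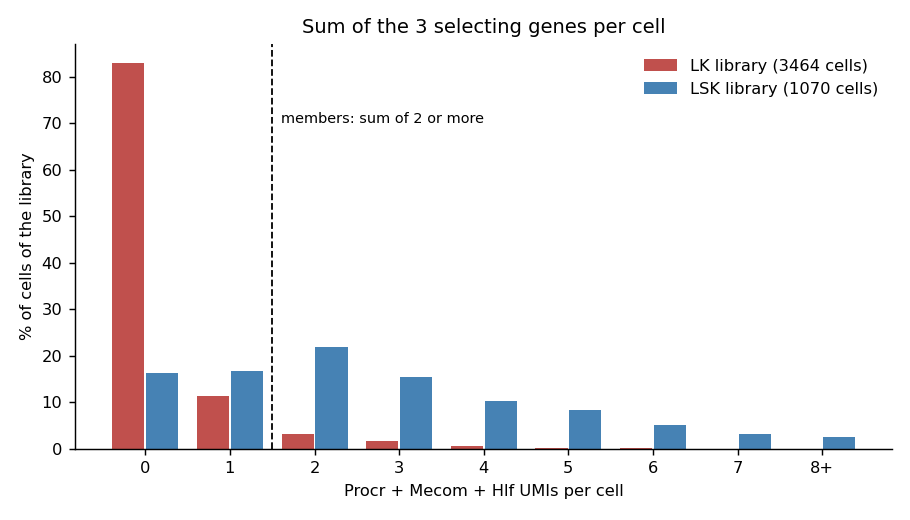
Share of the cells of each library (y axis, %) by the summed Procr, Mecom and Hlf UMIs of a cell (x axis), for LK (3464 cells) and LSK (1070 cells). The dashed line marks the lower limit of the rule, and cells with 0 number 2871 in LK and 175 in LSK.

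A sum of 2 UMIs is a threshold in a continuous range. Cells just outside it, with a sum of 1, numbered 372 under the same megakaryocyte limit. Ly6a was seen in 15.3% of them, against 26.9% of the 108 members with a sum of 2, 33.9% of the 59 with 3 and 57.6% of the 33 with 4 or more. Gimap6, a GTPase gene known from lymphocytes, followed the same order, with 37.6%, 55.6%, 76.3% and 78.8%. Nkx2-3, a homeobox gene of the stem program, was seen in 2.15%, 11.1%, 23.7% and 36.4%. Cd48, an antigen low on stem cells and present on most progenitors, went the other way, with 83.3%, 64.8%, 64.4% and 30.3%. Some neighbouring intervals overlap, as for Ly6a between a sum of 2 (18.8% to 36.2%) and 3 (22.1% to 47.4%). This holds at the larger sums too, as for Gimap6 between 3 and 4 or more (76.3% and 78.8%).

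The members stood apart from the rest of the LK gate by many genes that the rule did not use. Of 11455 genes with at least 20 UMIs over both sets, 1332 were at least 2-fold higher in the members (11.6%) and 293 at least 2-fold lower (2.56%), and the median log2 CPM ratio over all genes was 0.19. Since all these genes come from the cells that the rule chose, the ratios describe them and are no test. Genes with under 3 UMIs in the members were kept only where a floor of 3 UMIs did not make them higher. This removes sparse genes low in the members, so the counts of higher and lower genes cannot be set against each other. Scaling by the median of gene ratios in place of total UMIs moved every ratio by 0.12 on the log2 scale.

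Of the other genes of the stem program, 17 of 21 measured were at least 2-fold higher, 0 were lower, and the list's median log2 ratio was 1.73. Summed over all 24 genes of the list, measured or not, the level was 1843 CPM in members against 724 in other LK cells. Nkx2-3 stood at 24.8 CPM against 0.794, a log2 ratio of 4.97 (4.34 to 5.61). Clec1a, a C-type lectin gene, reached 4.06 (3.19 to 4.91), and Robo4, a guidance receptor that helps to hold stem cells in the marrow, 3.80 (2.62 to 4.91) on 12 UMIs in the members. Esam, an adhesion molecule of stem cells and endothelium, stood at 41.8 CPM against 3.11 (3.75, 3.36 to 4.13). Tcf15, a factor tied to stem cell quiescence, had a ratio of 2.81 (2.14 to 3.44), and Mllt3, which maintains human stem cells in culture, 2.25 (1.92 to 2.57).

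Slamf1, which encodes the stem cell antigen CD150, was hardly detected: 6 UMIs in the members gave 2.76 CPM (1.01 to 6.01), against 1.46 (1.14 to 1.85) in other LK cells. Cd48 did not separate the sets by level, at 211 CPM (192 to 231) against 214 (210 to 218). Vwf, a gene of megakaryocyte-biased stem cells, stood at 3.22 CPM against 2.07, with a ratio of 0.64 (-0.71 to 1.73) that includes equality. The levels of Slamf1, Cd48 and Vwf thus did not set the members apart, while most other stem genes did.

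Genes of the Hox clusters pattern the embryo and are active in early blood cells. Of 18 in the list 9 were measured, and 7 of these were higher, with a median log2 ratio of 1.59. The others were left out by the limits on counts given above, so these values cover the measured genes only and lean to genes high in the members. Summed over all 18 genes, the list stood at 179 CPM in members against 71.0 in other LK cells. Hoxa10 was at 24.4 CPM against 3.70 (2.72, 2.25 to 3.17), Hoxb2 at 2.14 (1.37 to 2.84) and Hoxb3, on 5 UMIs, at 2.20 (0.45 to 3.62). Of 40 transcription factor genes measured, 6 were at least 2-fold higher and 4 lower, beside 11.6% and 2.56% of all genes. Gata3, needed in early T cells and also present in stem cells, had a ratio of 2.76 (2.18 to 3.31), and Gata2, a factor of stem and mast cells, only 0.48 (0.29 to 0.67). Cdkn1c, the p57 inhibitor linked to stem cell quiescence, was the 1 gene of 5 measured cell cycle inhibitors at least 2-fold higher, at 15.6 CPM against 1.96 (2.99, 2.38 to 3.57).

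Among genes with at least 100 UMIs that 10% of the members show, the largest ratios included antigen presentation, signalling and cytokine genes. H2-Eb1 and Cd74 had 4.26 (3.73 to 4.78) and 4.21 (3.91 to 4.50). Npdc1 had 3.74 (3.15 to 4.32), Myl10, a myosin light chain gene, 3.72 (3.43 to 4.01), and Tnip3, an inhibitor of inflammatory signalling, 3.68 (3.16 to 4.18). Ltb, the lymphotoxin beta gene, had 3.59 (3.30 to 3.87), Hes1, a target of Notch, 3.54 (3.04 to 4.04), and Socs2, a feedback inhibitor of cytokine receptors, 3.53 (3.01 to 4.04). Vldlr, a lipoprotein receptor gene, and Pglyrp2, a peptidoglycan amidase gene, had 3.50 and 3.41. Ly6a itself had 3.44 (3.13 to 3.75), at 58.9 CPM against 5.41.

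Genes of the Gimap family, GTPases best known from lymphocytes, were higher in 5 of 6 measured, with a median of 2.80. Summed over all 8 genes of the list, the level was 329 CPM in members against 59.9 in other LK cells. Gimap6 was seen in 65.5% of members and 16.7% of other LK cells, at 117 CPM against 14.9 (2.97, 2.75 to 3.18). Gimap8 had 4.81 (3.56 to 6.09) and Gimap5 2.63 (2.22 to 3.02). Of 17 interferon response genes, 9 were at least 2-fold higher and 0 lower, with a median of 1.001. Iigp1, an immunity GTPase gene, had 4.10 (3.33 to 4.85), Rsad2, the antiviral viperin gene, 2.54 (1.71 to 3.31), Rtp4 1.99 (1.57 to 2.38) and Oasl2 1.93 (1.48 to 2.35).

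Lymphoid-primed genes were mixed, with 2 of 6 measured higher and 1 lower. Ltb and Mn1 (2.88, 1.68 to 3.95) were higher, while Dntt, the terminal transferase of early lymphoid progenitors, stood at 2.30 CPM against 16.9 (-2.88, -4.50 to -1.65). Flt3, a receptor of multipotent and lymphoid-primed progenitors, was at 54.3 CPM against 29.1 (0.90, 0.61 to 1.17). Kit and Cd34, surface genes of the progenitor gates, were at 54.3 against 33.6 CPM (0.69, 0.41 to 0.96) and 439 against 251 CPM (0.80, 0.71 to 0.90).

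Genes of the committed lineages were lower. All 10 erythroid genes measured were at least 2-fold lower, with a median of -2.85. Car1, the carbonic anhydrase of red cell progenitors, was at 13.3 CPM against 310 (-4.54, -5.12 to -4.01), and 1 member held 51.7% of its UMIs. Klf1, the main erythroid factor, had -3.96 (-5.59 to -2.74), and Aqp1, a water channel of red cells, -3.57 (-4.57 to -2.73). Of 9 granulocyte and monocyte progenitor genes 7 were lower (median -1.45), of 7 monocyte genes 6 were lower and Klf4 was higher (median -1.79), and of 7 mast cell and basophil genes 5 were lower (median -1.25). Mgl2 and Clec4a2, C-type lectin genes of myeloid cells, had 1 and 2 UMIs in the members, too few for a firm ratio, with -4.76 (-10.06 to -2.27) and -4.18 (-7.23 to -2.33). Rhd and Ermap, red cell genes, had 0 UMIs in the members, at least 9.83-fold and 4.98-fold lower on a floor of 3 UMIs per set. Ly6c2, a monocyte antigen gene, stood at 101 CPM against 716 (-2.83, -3.03 to -2.64). Among 5 measured megakaryocyte genes that the rule did not use, 0 passed 2-fold in either direction.

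**Figure D2:**
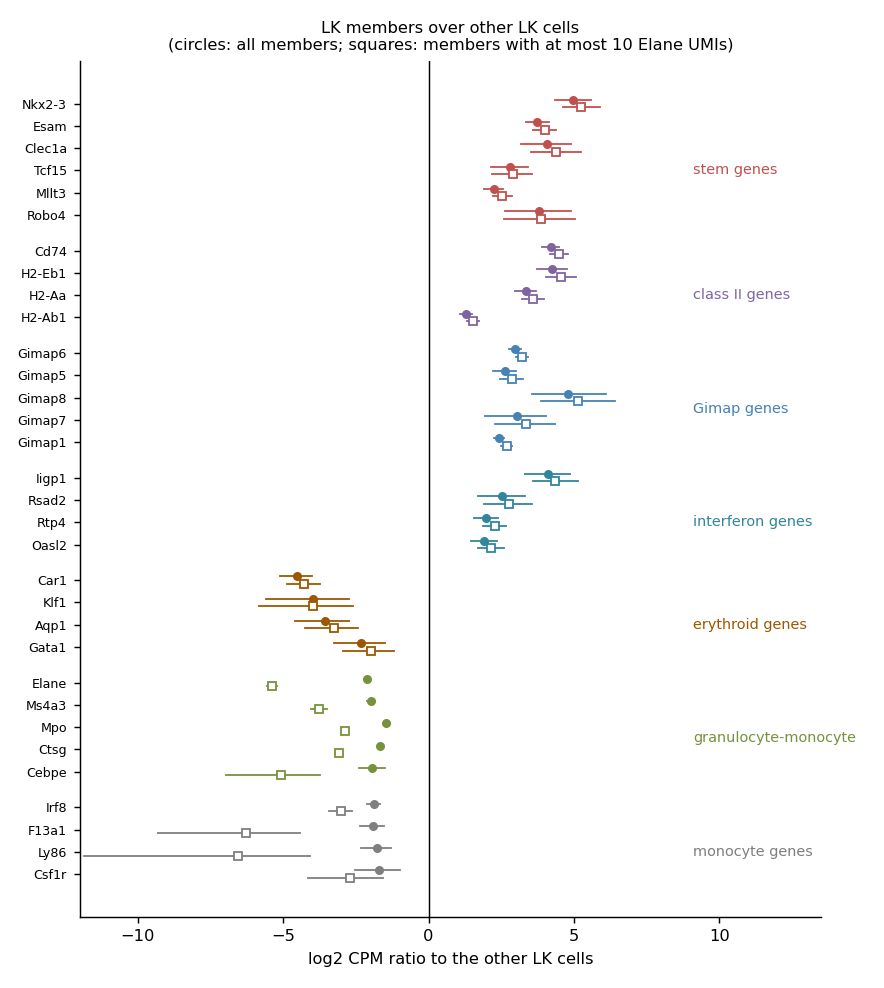
Log2 ratio of CPM in LK members to CPM in the other LK cells (x axis) for named genes of 7 lists (y axis), with exact 95% intervals for counting error. Circles are all 200 members and squares the 184 with at most 10 Elane UMIs. The genes shown were picked from each list. Those of the stem, class II, Gimap and interferon lists lie right of 0 and the lineage genes left of it. The granulocyte and monocyte genes shown lie farther left once members are limited on Elane. Klf4, a monocyte gene that was higher in the members, is not shown.

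A small set of members carried most of the granule gene RNA. Elane, the neutrophil elastase of granulocyte progenitors, had a median of 1 UMI per member but a maximum of 392. The 16 members with more than 10 Elane UMIs, a limit set after the values were seen, held 91.7% of the members' Elane UMIs and 70.4% of their Mpo UMIs. Mpo encodes myeloperoxidase. These 16 cells had a median of 27975.5 UMIs, against 8824.5 in the other 184, and 3 of them had a Ly6a UMI. When cells are ranked by Scrublet score and the share expected from the loading is taken, 6 of the 16 and 1 of the 184 fall in it. The part of doublets in these cells was not tested.

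Without the 16 cells Elane stood at 153 in place of 1475 CPM, against 6371 in other LK cells, and Mpo at 1076 in place of 2913 CPM, against 7952. This choice is made on Elane, so the fall of Elane itself is set by it. The granulocyte and monocyte progenitor list (median -2.89) and the monocyte list (-3.01) also lay lower than with all members, which is a description. The stem list median was 1.95 in place of 1.73, with 20 of 21 genes at least 2-fold higher, against 14.1% of all genes (3.14% were lower).

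With the same limit of 10 Elane UMIs on the other LK cells, the granulocyte and monocyte progenitor list had a median of only -0.43 and 2 of 8 genes lower, where it was -1.45 against all other LK cells. Mpo then had -0.77 (-0.83 to -0.70). The monocyte list kept a median of -1.57 (5 of 7 lower) and the erythroid list -3.86 (10 of 10 lower). The stem list had 1.31 (13 of 21 higher), the Gimap list 1.85 (5 of 6), the class II list 1.78 (4 of 6) and the interferon list 0.58 (7 of 17), against 7.25% of all genes higher and 2.63% lower.

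A low Elane count is general in this library. Cells with at least 3 Klf1 UMIs or 1 Rhd UMI, erythroid cells that should lack granule genes, had a median of 2 Elane UMIs, and 84.7% of them had at least 1 at a median depth of 15556 UMIs. Among the members 69.5% had an Elane UMI at a median depth of 9348.5. In the LSK library the share of chosen cells with an Elane UMI was 5.56%. A count of 1 or 2 Elane UMIs in an LK member is thus at the level of cells that should not express the gene.

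The proportions of granule genes were set beside those of the erythroid cells. Among cells with at most 10 Elane UMIs, members had 7.05 Mpo UMIs per Elane UMI (6.20 to 8.05), against 2.42 (2.15 to 2.74) in the erythroid cells and 2.64 (2.06 to 3.40) in cells rich in Pf4, Gp9 and Itga2b. For Prtn3, the proteinase 3 gene, the values were 5.21 (4.57 to 5.96), 0.819 (0.702 to 0.955) and 1.23 (0.925 to 1.64). For Ctsg, cathepsin G, they were 2.56 (2.22 to 2.97), 0.824 (0.707 to 0.960) and 1.16 (0.872 to 1.56). A further 23 members had at most 10 Elane but more than 20 Mpo UMIs, with a median of 14481 UMIs per cell, and they carried much of these values. Leaving them out, a choice made on Mpo itself, gave 3.66 (3.11 to 4.33) for Mpo, 4.70 (4.01 to 5.53) for Prtn3 and 1.19 (0.973 to 1.45) for Ctsg. The erythroid cells and the cells rich in Pf4, Gp9 and Itga2b were not limited on Mpo, so the sets are no longer alike. Beside these unlimited sets, the Prtn3 value stayed well above that of the erythroid cells. The Ctsg interval overlaps that of the cells rich in Pf4, Gp9 and Itga2b, an overlap that rests on unequal limits. Prtn3 was also seen in 93.2% of the chosen LSK cells, at a median of 4 UMIs, where Elane was rare.

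**Figure D3:**
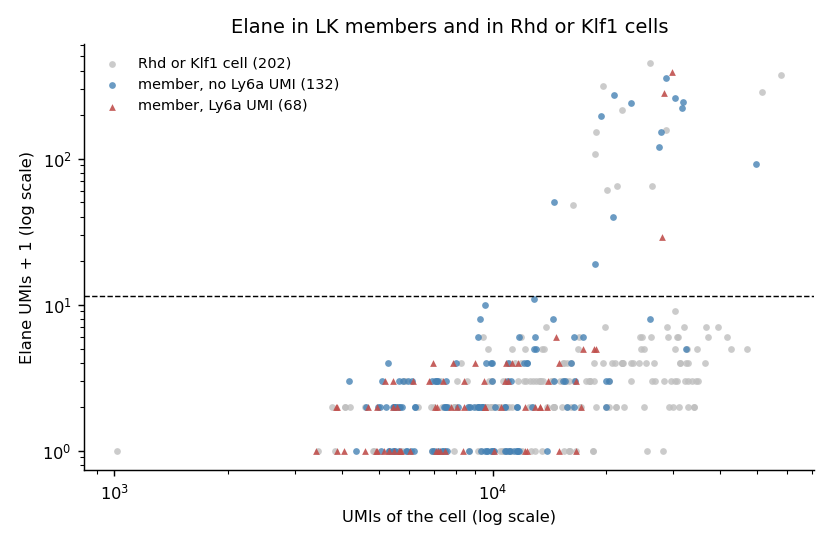
Elane UMIs plus 1 (y axis, log scale) against the total UMIs of a cell (x axis, log scale) for LK members with a Ly6a UMI (68), without one (132) and LK cells with Rhd or Klf1 UMIs (202). The dashed line lies just above 10 UMIs: 16 members and 12 of the Rhd or Klf1 cells lie above it, and most other cells of each set lie between 0 and 5 Elane UMIs.

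Ly6a RNA was seen in 68 of the 200 members, or 34.0% (27.5% to 41.0%). It was seen in 6.22% of other LK cells (5.42% to 7.10%), in 57.0% of the LSK cells chosen by the same rule (53.2% to 60.7%) and in 42.1% of other LSK cells. Among the 202 erythroid cells there were 0 with a Ly6a UMI, which allows a share of cells with a UMI of up to 1.49% (3 of 202). With every cell thinned to 5000 UMIs, which left out 14 members and 227 other LK cells, the shares were 19.9% (14.4% to 26.4%) in members, 2.57% (2.04% to 3.20%) in other LK cells and 36.6% (33.0% to 40.3%) in the chosen LSK cells. The intervals of the 3 sets do not overlap at equal depth. A cell without a Ly6a UMI may still express the gene, since 43.0% of the chosen LSK cells, sorted as Sca-1 positive, had none.

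Members with a Ly6a UMI held more RNA of the stem program than members without one. They had no deeper counts, with a median of 8217 UMIs against 9559.5. Of 7645 genes with at least 20 UMIs over both sets, 248 were at least 2-fold higher in the cells with Ly6a (3.24%) and 159 lower (2.08%). Most of these rest on few counts, since with at least 200 UMIs 1 gene was higher and 5 lower. Of 18 stem genes measured 8 were higher and 0 lower, with a median log2 ratio of 0.84. Nkx2-3 stood at 56.1 against 10.7 CPM (2.39, 1.52 to 3.33) and Mllt3 at 91.5 against 23.4 CPM (1.97, 1.35 to 2.61). Socs2 had 2.10 (1.22 to 3.04) and Esam 1.62 (0.996 to 2.26). Csgalnact1, a chondroitin sulfate synthesis gene, had 1.83 (0.93 to 2.77), Ltb 1.83 (1.36 to 2.32), Gdf15, a stress cytokine gene, 1.79 (0.83 to 2.79) and Cdkn1c 1.66 (0.60 to 2.76).

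Of 14 interferon response genes 6 were at least 2-fold higher in the cells with Ly6a and 0 lower, with a median of 0.89. Oasl2 had 1.20 (0.37 to 2.03) and Rtp4 1.002 (0.23 to 1.77). Ly6a is itself a gene that interferon induces. Of 5 Hox genes 1 was higher, and Gimap6 had 0.89 (0.52 to 1.26).

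Cd48 and Cd34 were seen in more of the cells without Ly6a. Cd48 was seen in 70.5% of them (61.9% to 78.1%) and in 36.8% of the cells with Ly6a (25.4% to 49.3%), and Cd34 in 95.5% (90.4% to 98.3%) and 70.6% (58.3% to 81.0%). For Flt3 the shares of 43.2% (34.6% to 52.1%) and 29.4% (19.0% to 41.7%) have overlapping intervals. The granulocyte and monocyte progenitor list had a median of -0.60 with 0 of 8 genes past 2-fold. Mcpt8, a basophil protease gene, had a log2 ratio of -1.97 (-3.48 to -0.75), the chemokine gene Cxcl2 -1.77 (-2.34 to -1.24) and Slc25a13 -1.76 (-3.28 to -0.53). Irf8, the factor of monocyte and dendritic progenitors, had -1.56 (-2.30 to -0.89), and Hp, haptoglobin, -1.49 (-2.35 to -0.71).

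The monocyte genes depended on the 16 cells rich in Elane, 13 of which lack a Ly6a UMI. The list's median was -1.39 with all members and 0.07 without those cells, where Irf8 had -0.83 (-1.84 to 0.09). Mpo and Ctsg kept a difference without them, at -1.24 (-1.42 to -1.07) and -1.10 (-1.38 to -0.82), and so did the stem list, at a median of 0.78. In summed counts cell cycle genes were alike: S phase and G2/M lists had medians of -0.01 and 0.05, with 0 of 20 genes of either list past 2-fold. Per cell they were lower with Ly6a. The median of the S phase list was 1348 CPM with Ly6a (quartiles 682 and 3951) and 2267 without (806 and 3883). For the G2/M list the medians were 243 and 366 CPM. These values are for all members and not at equal depth, and the difference was not tested.

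**Figure D4:**
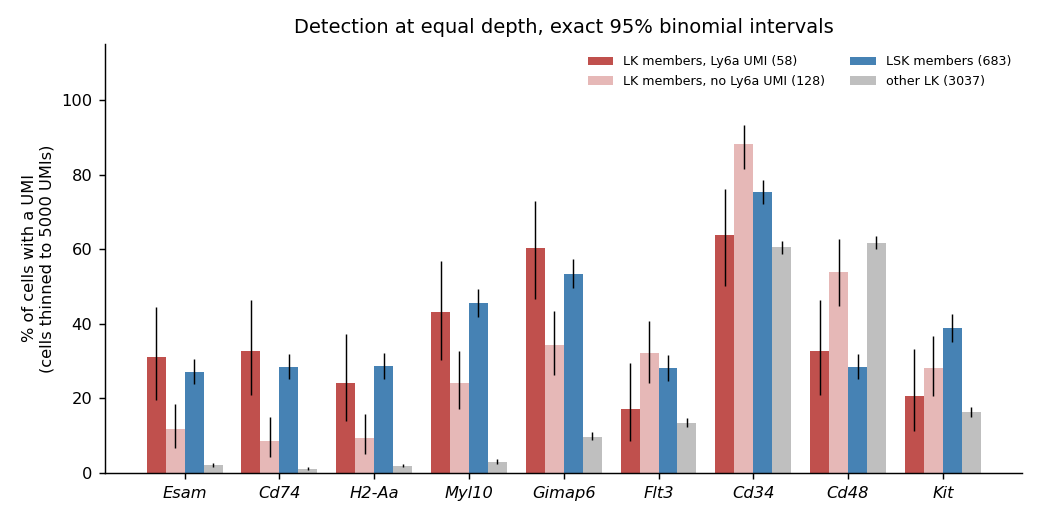
Share of cells with a UMI of each gene (y axis, %) after every cell was thinned to 5000 UMIs, for LK members with and without a Ly6a UMI, LSK members and other LK cells; the legend gives the cells left, and bars carry exact 95% binomial intervals. For Esam, Cd74 and H2-Aa the LK members with Ly6a lie near the LSK members, which are not limited to cells with Ly6a. For Cd34 and Cd48 the LK members without Ly6a lie above those with it.

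The class II genes, which encode the molecules that present antigen to T helper cells, held the 2 largest ratios in this split among the genes of the naming rule. Against other LK cells, 4 of 6 measured were at least 2-fold higher, with a median of 2.31. Cd74, the invariant chain that guides class II molecules, was seen in 41.2% of members with Ly6a (29.4% to 53.8%) and 11.4% of those without (6.50% to 18.0%). It stood at 192 against 30.7 CPM (2.64, 2.15 to 3.16), and 1 cell held 56.5% of the UMIs of the second set. H2-Eb1 had a log2 ratio of 2.73 (1.86 to 3.68), H2-Aa 1.76 (1.12 to 2.40) and H2-Ab1 0.80 (0.41 to 1.20). H2-DMa, a gene for peptide loading, had -0.26 (-0.55 to 0.02). The class II list had 3 of 6 genes higher and a median of 1.28. The same split among the chosen LSK cells gave 49.5% (44.5% to 54.5%) and 28.8% (23.8% to 34.3%) for Cd74, and log2 ratios of 2.26 (2.04 to 2.48) for Cd74 and 1.76 (1.48 to 2.05) for H2-Aa.

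Detection of class II genes overlapped. Of the members with an H2-Aa UMI 64.4% (48.8% to 78.1%) also had Cd74, against 9.03% (5.03% to 14.7%) of those without. The 43 members with Cd74 were shallower than the other 157, at medians of 6927 and 9564 UMIs. Against those 157 cells, 10 of 18 stem genes measured passed 2-fold upward and 0 downward (median 1.11), and 6 of 8 granulocyte and monocyte progenitor genes were lower (median -1.39). Over all 7645 genes, 5.34% were higher and 3.20% lower in this contrast. The 16 members rich in Elane had an upper quartile of 0 Cd74 UMIs. The 23 with at most 10 Elane but more than 20 Mpo UMIs had a maximum of 0. Most cells rich in granule RNA thus lie among the 157, and their part in the lower granulocyte and monocyte progenitor list was not tested. Cells that present antigen were looked for among the members. Of 7 B cell markers Cd79a, Ebf1 and Pax5 were among those at 0, and the list summed to 38.6 CPM in members against 43.9 in other LK cells, of which Cd79b held 75 of 84 UMIs in members. The 4 dendritic markers had 1 UMI among all members, and the 5 macrophage markers 7 UMIs, or 3.22 CPM against 7.31.

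H2-Aa and H2-Eb1, which encode an alpha and a beta chain of class II, lie on chromosome 17, and their promoters are shown because both genes had high ratios in the members. Of the members with an H2-Aa UMI, 42.2% (27.7% to 57.8%) also had H2-Eb1, against 10.3% (6.02% to 16.2%) of those without. Class II promoters are known to carry a Y box, an inverted CCAAT element bound by the factor NF-Y. Below are the 250 bases before each start (RefSeq, build GRCm38.p6), read 5′ to 3′ on the gene's strand, with ATTGG in capitals. The window of H2-Aa is chr17:34287824-34288073 on the minus strand and that of H2-Eb1 chr17:34305617-34305866 on the plus strand.
H2-Aa: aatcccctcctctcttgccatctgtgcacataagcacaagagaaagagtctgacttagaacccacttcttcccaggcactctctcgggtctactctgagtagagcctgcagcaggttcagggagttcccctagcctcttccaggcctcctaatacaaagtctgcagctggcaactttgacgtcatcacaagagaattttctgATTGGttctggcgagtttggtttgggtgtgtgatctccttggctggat
H2-Eb1: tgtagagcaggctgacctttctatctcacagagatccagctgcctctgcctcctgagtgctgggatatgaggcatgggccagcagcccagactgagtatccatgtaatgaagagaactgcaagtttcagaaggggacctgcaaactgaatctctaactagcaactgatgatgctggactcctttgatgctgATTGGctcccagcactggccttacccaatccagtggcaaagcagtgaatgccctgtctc
The motif ATTGG starts 48 bases before the start of H2-Aa and 59 bases before that of H2-Eb1, and H2-Eb1 also holds 1 copy on the other strand. Of all 32851 promoter windows of this length, 19.7% hold ATTGG on the gene's strand and 33.8% on either strand, so a match by itself is common. The table matched 4 of the 7 class II genes, and a match is a description of the letters only.

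LK members and LSK cells chosen by the same rule were then set side by side. Of 10969 genes, 121 were at least 2-fold higher in the LK members (1.10%) and 786 lower (7.17%). These are different libraries, so a difference between gates and a difference between libraries cannot be told apart. Of 24 stem genes, 10 were at least 2-fold lower in the LK members and 0 higher, with a median of -0.73. Tcf15 had -1.32 (-1.94 to -0.75) and Mllt3 -0.75 (-1.08 to -0.44). Cd34 was at a like level, 439 against 453 CPM (-0.04, -0.15 to 0.06), and Cd48 was higher, 211 against 112 CPM (0.91, 0.74 to 1.07).

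The stem genes were closer between the gates among cells with Ly6a than among cells without, a difference that was not tested. For LK against LSK members with a Ly6a UMI, 2 of 24 stem genes were at least 2-fold lower (median -0.31), and for members without one 9 of 21 (median -0.98). Over all genes, 4.61% of 9897 were lower and 1.62% higher with Ly6a, and 7.63% of 9693 were lower and 1.18% higher without it. Esam had 0.26 (-0.19 to 0.69) among cells with Ly6a and -1.19 (-1.73 to -0.68) among cells without. Mllt3 had -0.04 (-0.45 to 0.35) and -1.12 (-1.69 to -0.58), Nkx2-3 0.41 (-0.14 to 0.92) and -1.60 (-2.46 to -0.84), and Gimap6 -0.05 (-0.35 to 0.23) and -0.65 (-0.93 to -0.37). For Flt3 the intervals of the 2 ratios overlap, at -1.02 (-1.62 to -0.48) with Ly6a and -0.53 (-0.89 to -0.18) without. Ltb and Cd74 were lower in the LK cells with and without Ly6a: Ltb had -0.61 (-0.92 to -0.31) and -1.53 (-1.94 to -1.14), and Cd74 -0.61 (-0.88 to -0.34) and -0.99 (-1.48 to -0.52).

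G2/M genes, active before and during cell division, were higher in the LK members with Ly6a than in their LSK counterparts in 11 of 20 genes, with a median of 1.02 (1.62% of all genes were higher), and in 3 of 20 genes for all members (median 0.66). At equal depth, 34.5% (22.5% to 48.1%) of the LK members with Ly6a and 27.9% (23.5% to 32.7%) of the LSK ones had a UMI of Mki67 or Top2a, proliferation markers, and these intervals overlap. For all members the shares were 39.2% (32.2% to 46.7%) in LK and 30.9% (27.4% to 34.5%) in LSK, against 34.7% in other LK cells. Unthinned, they were 47.5%, 38.9% and 54.6%.

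The largest ratios in LK over LSK members belonged to myeloid genes. Elane had 3.59 (3.49 to 3.70), Slpi, a protease inhibitor gene, 3.54 (3.12 to 3.98), Ctsg 3.51 (3.39 to 3.64), Ly6c2 3.49 (3.08 to 3.90) and Mpo 3.15 (3.08 to 3.22). Of 8 granulocyte and monocyte progenitor genes 6 were at least 2-fold higher, with a median of 3.18. The 16 LK cells rich in Elane weigh here: without them the median was 0.61, and with the 4 LSK members over 10 Elane UMIs left out as well it was 2.63 over 7 measured genes. Mpo then stood at 1076 against 158 CPM (2.77, 2.66 to 2.88). The low Elane count in LK erythroid cells, given above, moves with this contrast, and its part in the result was not tested.

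Genes lower in the LK members included Cebpb, a factor of stress myelopoiesis, at 29.4 against 129 CPM (-2.13, -2.52 to -1.76), C1ra, a complement protease gene, at -2.31 (-3.79 to -1.14), Maml2, a Notch coactivator gene, at -2.28 (-3.76 to -1.11) and Tgm2, a transglutaminase gene, at -1.80 (-2.52 to -1.16). Rnaset2a had -2.21 (-2.75 to -1.71), but it has a near-identical copy and is uncertain. Hbb-bt, a globin gene, stood at 9.66 against 38.6 CPM.

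Most LSK cells pass the same rule. Compared with other LSK cells, the chosen ones had 322 of 11359 genes 2-fold or more higher (2.83%) and 167 lower (1.47%). Of 24 stem genes 5 were higher there, with a median of 0.67. Among 10947 genes measured in both gates, 1166 were higher in LK members and 221 in LSK members. Of these, 125 were higher in both, which is 10.7% of the first and 56.6% of the second list. Over all genes compared in each gate, 2.83% were higher in LSK members and 11.6% in LK members. For lower genes, 59 were shared of 200 and 137, or 29.5% and 43.1%, beside 1.47% of all genes lower in LSK and 2.56% in LK. In the other direction, 12 genes higher in LK members were at least 2-fold lower in LSK members, and 1 lower gene was higher there.

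**Figure D5:**
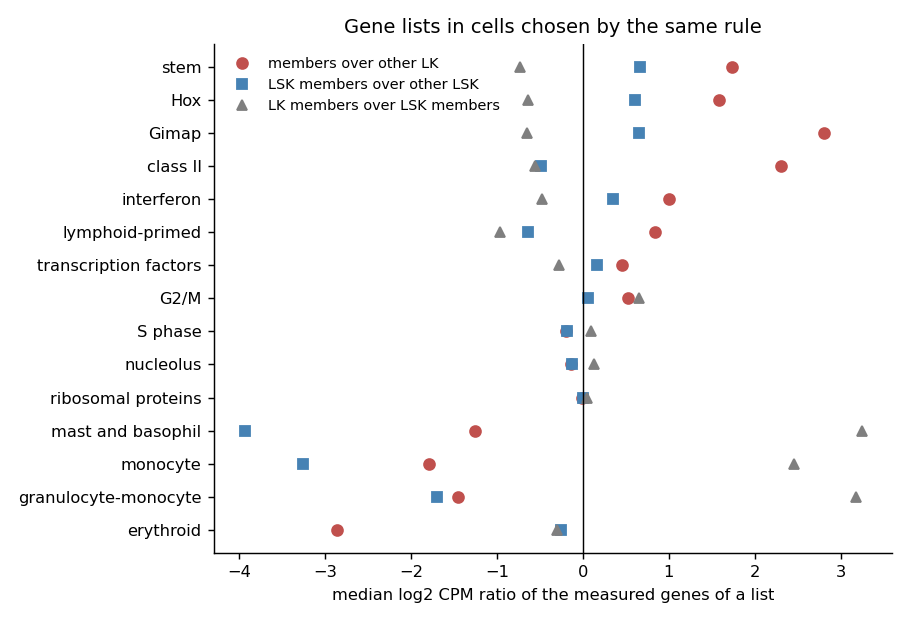
Median log2 CPM ratio of the measured genes (x axis) of 15 gene lists (y axis) for LK members over other LK cells, LSK members over other LSK cells, and LK members over LSK members. Stem, Hox, Gimap and interferon lists lie right of 0 in both gates, and the class II and lymphoid-primed lists lie right of 0 in LK and left of it in LSK.

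Ribosomal, nucleolar, respiratory chain and glycolysis genes were compared as housekeeping lists. Ribosomal protein genes had a median log2 ratio of -0.01 with 0 of 82 past 2-fold, nucleolar genes -0.14 with 0 of 15, and respiratory chain genes -0.29 with 0 of 15. Of 15 glycolysis genes 1 was at least 2-fold higher, the glucose transporter gene Slc2a3 (1.46, 0.99 to 1.90), with a list median of -0.20. S phase genes had a median of -0.19 with 0 of 20 past 2-fold. In summed counts the G2/M list stood higher, with a median of 0.53. Of its 20 genes 2 passed 2-fold, Cenpf (1.22, 0.95 to 1.48) and Nusap1 (1.08, 0.88 to 1.28), a share near the 11.6% of all genes. Per cell, its median was 336 CPM in members against 481 in other LK cells, and the upper quartile 1520 against 1306. The typical member was thus not higher in G2/M genes. For the S phase list the medians per cell were 2095 and 2891 CPM. Of 13 immediate early genes 1 was higher, Nr4a1 (1.57, 1.33 to 1.80), with a list median of 0.47.

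In total bone marrow, 11 cells met the rule, too few for more than a count. A Ly6a UMI was seen in 81.8% of them (48.2% to 97.7%). Elane was seen in 9.09% of them (0.230% to 41.3%), and 1 of these cells held 89.2% of their Cd74 UMIs.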

How the data were processed

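The authors deposited raw counts, as UMIs by gene and barcode with no normalization, as the values in them show. Per the submitters' processing notes, Cell Ranger 4.0.0 and build mm10 were used, and filters before deposition are not known here. The members and gene lists were chosen with earlier results of these data known. Counts were summed over cells and scaled to CPM. CPM carry exact Poisson intervals, ratios exact conditional binomial ones and shares exact Clopper-Pearson ones, at 95%. Genes with at least 20 UMIs over both sets were compared, and a count under 3 was set to 3 when 2-fold differences were counted. A gene was left out where the set with under 3 UMIs then came out higher. In the contrasts of members with other LK cells this removes sparse genes low in the members. Genes that were kept are called measured. Thinning drew 5000 UMIs per cell. With 1 library per group no test was run. Doublets were scored with Scrublet (scanpy 1.11.5) but not removed, and free RNA was not corrected.

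Named genes were the 12 largest ratios in each direction against other LK cells and 8 in each direction in the other main contrasts. They needed 100 UMIs (40 in the Ly6a split) and detection in 10% of the cells of the higher set. Up to 5 genes of each list and the gate's genes were added. Prtn3, Klf4, Mki67 and Top2a, the erythroid comparison cells and the Elane and Mpo limits were chosen after values were seen. Some genes that the rule names are not reported here. Reads shared by related genes (Ly6, class II and Gimap families) could be split.

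The kept cells held 50037534 UMIs in LK, 11897901 in LSK and 22522054 in TBM. The study states 3441 LK, 1070 LSK and 3984 TBM cells, the files hold 3560, 1091 and 4317 barcodes, and the filters left 3464, 1070 and 4290. Python 3.11.15, numpy 2.4.6, pandas 2.3.3, scipy 1.17.1 and matplotlib 3.10.9 were used, and the interval code was tested on simulated data.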

Additional observations from a re-analysis of the deposited data

Results flagged for a closer look

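The same contrast pointed in opposite directions in the LK and the LSK gate for 2 gene lists, and the difference was not tested. The class II list had a median log2 ratio of 2.31 for members over other cells in LK and -0.49 in LSK. In LSK, 1 cell outside the rule held 32.5% of the Cd74 UMIs of its set, and the share of cells with a Cd74 UMI was 40.6% in members and 24.2% in other LSK cells, which is the opposite order to the list median there. For lymphoid-primed genes the median was 0.84 in LK and -0.64 in LSK, where Flt3 stood at 86.4 CPM in members and 136 CPM in other cells.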

How the results depend on the processing

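The share of members, 5.77%, was 16.5% with a minimum of 1 UMI, 2.66% with a minimum of 3 and 2.64% with cells thinned to 5000 UMIs. The share of members with Ly6a, 34.0%, was 42.4% with a minimum of 3 UMIs and 19.9% after thinning. Against other LK cells, 399 genes were at least 2-fold higher with a minimum of 200 UMIs per gene, and 801 with both sets limited to 10 Elane UMIs per cell (1332 in the report). In the Ly6a split, 250 genes were lower with equal weight for each cell, 44 were higher and 35 lower with at least 50 UMIs, and 1 and 5 with at least 200. For LK against LSK members, 65 were higher and 411 lower with at least 50 UMIs, and 31 and 72 with at least 200. Fewer genes are tested under these minimums. The monocyte list of the Ly6a split reversed, from -1.39 to 0.073 in members with at most 10 Elane UMIs and to 0.15 in cells with 5000 to 20000 UMIs. Of 242 recomputed medians of 25 list results, 212 stayed within the error of the main value, 28 moved by more and 2 reversed. The limit of 10 Elane UMIs on members or on both sets, the minimum of 200 UMIs, the thinned share and the removal of the expected share of doublets were chosen after seeing the data. No paired analysis was possible because each group is 1 library, and no replicate could be left out.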
